A study of Mus musculus with 24 samples.

Results

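The genes of the proteasome were followed through 24 RNA sequencing libraries of mouse embryonic stem cells in which heme synthesis was inhibited. They were taken as every row of the count table whose symbol is Psm, a letter from a to g and a number, which gave 47 of 23762 symbols. All 47 passed the filter on low counts that left 16067 genes for testing. By letter there were 8 Psma, 10 Psmb, 6 Psmc, 14 Psmd, 4 Psme, 1 Psmf and 4 Psmg genes. The cells were of the line ES-E14TG2a, grown in N2B27 medium, in 6 groups of 4 libraries. The naive groups were kept in 2iL, which holds 3 µM CHIR99021, 1 µM PD0325901 and LIF, either alone, for 48 h with 0.5 mM succinylacetone (2iL+SA), or for 48 h with 0.5 mM succinylacetone and 10 µM hemin (2iL+SA+H). The groups in transition were moved for 48 h to 12 ng/ml bFGF and 20 ng/ml activin on plates coated with 15 µg/ml fibronectin, alone (EpiLC) or with the same additions (EpiLC+SA and EpiLC+SA+H). Succinylacetone blocks heme synthesis at the enzyme that joins aminolevulinic acid molecules, and hemin supplies the product of the pathway. No group received hemin alone.

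The proteasome degrades proteins that carry ubiquitin chains. Its core particle is a stack of rings made of alpha subunits, encoded by the Psma genes, and beta subunits, encoded by the Psmb genes, of which Psmb5, Psmb6 and Psmb7 carry the constitutive active sites. The regulatory particle on the core holds a ring of ATPases, the Psmc genes, which unfold the substrate, and non-ATPase subunits, most of the Psmd genes, which form its lid and its scaffold and bind and remove ubiquitin. Some genes with a Psmd name, such as Psmd10, Psmd5 and Psmd9, encode chaperones that help to build the regulatory particle. The Psme genes encode other activators of the core, Psmf1 an inhibitor, and the Psmg genes chaperones that assemble the core. Cells under interferon replace the constitutive active-site subunits by those of the immunoproteasome, Psmb8, Psmb9 and Psmb10. Human embryonic stem cells are known for a high proteasome activity.

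The libraries held 1857964 to 9069538 counts, and 3 of them stood apart at the low end, namely EpiLC+SA+H replicate 1, EpiLC replicate 3 and 2iL+SA replicate 3. Values are given as CPM, a gene's count brought to the same nominal library total in all libraries after scaling by the trimmed mean of M values (TMM). In the 3 shallow libraries the proteasome genes deviated from the other libraries of their group by a median of 0.68 to 0.78 on the log2 scale, against 0.11 to 0.43 in the other 21. Over all genes with a mean of at least 20 CPM this was 0.48 to 0.58 against 0.12 to 0.30. Psmc1, an ATPase subunit, showed this with 2310.3 CPM in 2iL+SA replicate 3 against 473 to 573 in the other libraries of that group. Psma2, a core alpha subunit, went the other way there, with 127 against 332 to 393 CPM. Fits without these 3 libraries are therefore given beside the main results. The pluripotency gene Sox2 was at 245 to 1014 CPM over all libraries, while Pou5f1 was at 5.55 to 87.7 CPM. The naive gene Zfp42 was at 170 to 368 CPM in the naive groups and 14.5 to 225 CPM in transition. The primed gene Fgf5 reached at most 0.402 CPM in the naive groups, 13.0 to 49.4 in EpiLC, at most 0.851 in EpiLC+SA and 9.47 to 26.1 in EpiLC+SA+H.

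Proteasome genes took between 0.775% and 1.06% of the counts of a library. Their share was 0.888% to 1.06% in 2iL, 0.775% to 1.02% in 2iL+SA and 0.783% to 1.02% in 2iL+SA+H. In transition it was 0.882% to 1.02% in EpiLC, 0.811% to 0.990% in EpiLC+SA and 0.840% to 1.06% in EpiLC+SA+H. These ranges overlap, but that of 2iL+SA reached 2iL only through the shallow replicate 3, and its other 3 libraries, at 0.775% to 0.809%, lay below every 2iL library. The make-up of the total by gene is in the map of all members by library. In these bulk samples, fewer cells that express a gene and less of its RNA per cell cannot be told apart.

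**Figure D1:**
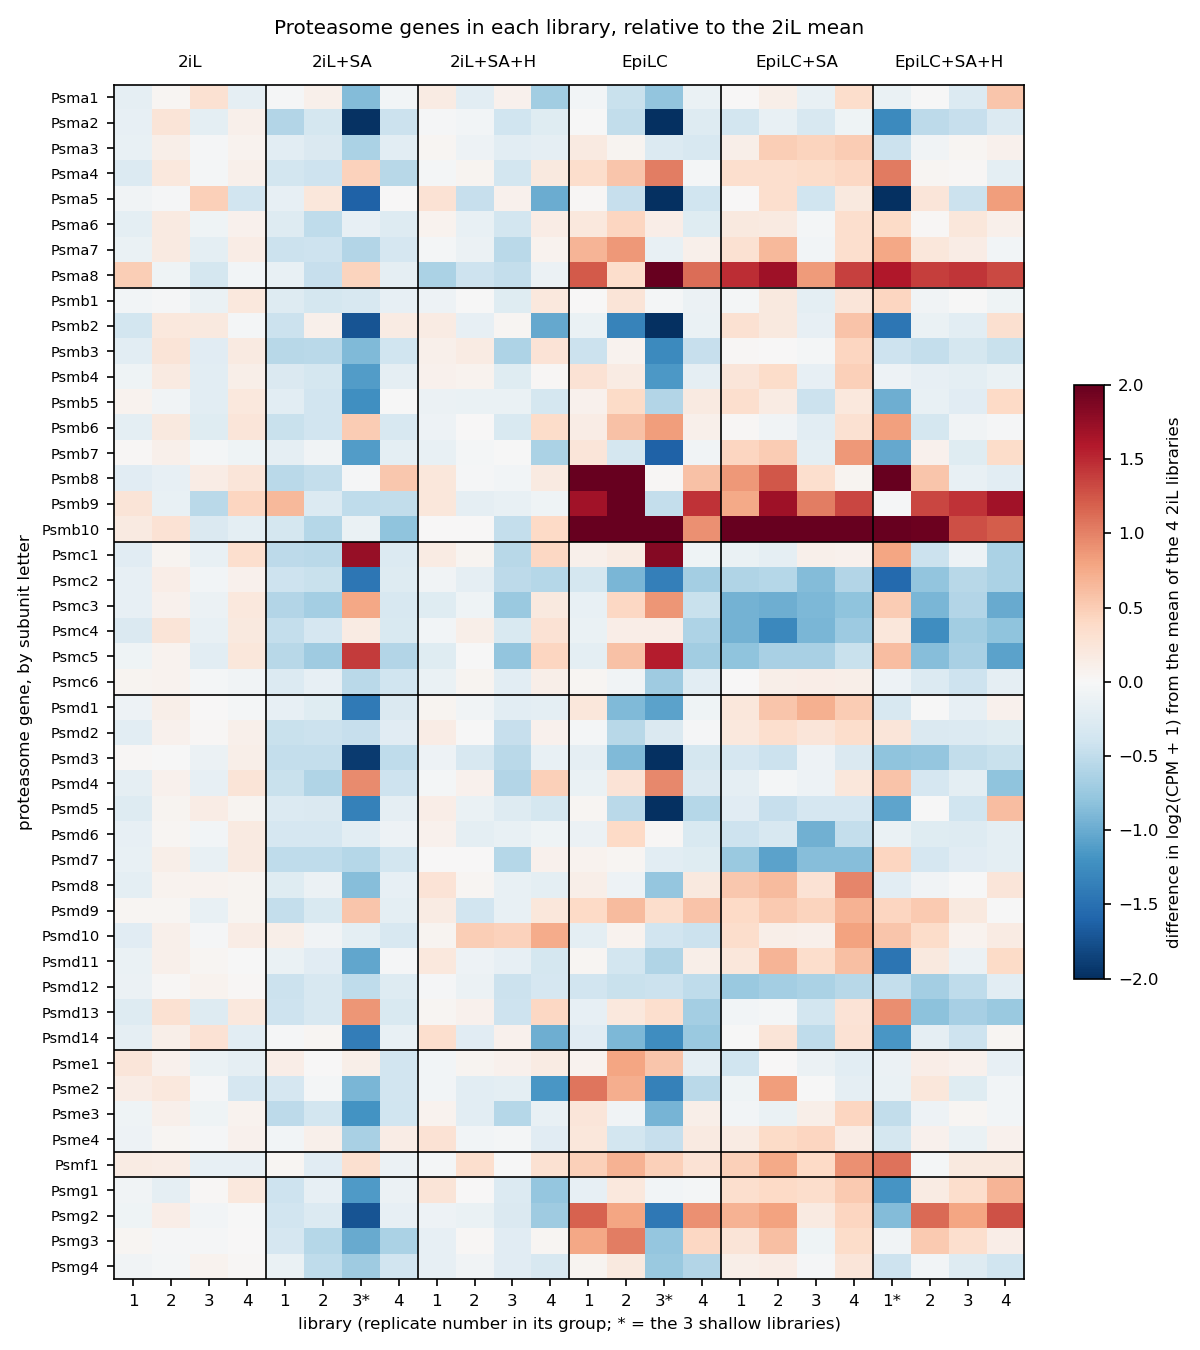
Each row is a proteasome gene and each column a library, and the colour is the difference in log2(CPM + 1) from the mean of the 4 2iL libraries, cut off at 2 in either direction. The rows of Psmb8, Psmb9, Psmb10 and Psma8 are red in most libraries of the EpiLC groups, and the 3 starred shallow columns depart from their neighbours in opposite directions for different genes.

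The first question was which proteasome genes differ between the naive state and the transition without any drug. Psmb10, Psmb8 and Psmb9, the active-site subunits of the immunoproteasome, rose in EpiLC, and so did Psma8, an alpha subunit known from male germ cells where it takes the place of Psma7. Psmc2, an ATPase, and Psmd12, a lid subunit, fell. The 6 called members are 12.8% of the 47, below the 28.3% of all tested genes that were called (edgeR's quasi-likelihood test, Benjamini-Hochberg adjusted p under 0.05). The median log2 fold change of the members was -0.07, against 0.00 for all genes tested.

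Psmb10 was at 11.9, 12.9, 8.24 and 8.91 CPM in 2iL replicates 1 to 4 and at 70.5, 119.6, 46.1 and 20.2 CPM in those of EpiLC. Every EpiLC library lay above every 2iL library, with a log2 fold change of 2.61 (SE 0.44, adjusted p = 7.38e-05), or 6.09-fold. The gene spans positions 105935735 to 105938444 of chromosome 8 on the minus strand (GRCm38, GENCODE annotation), and its 3′ end overlaps the predicted gene Gm16156 on the other strand.

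Psmb9 was at 2.59, 1.69, 1.07 and 3.03 CPM in 2iL and at 8.55, 11.9, 1.16 and 7.12 CPM in EpiLC. The shallow EpiLC replicate 3 fell within the naive range and the other 3 lay above it, with a log2 fold change of 1.81 (SE 0.49, adjusted p = 0.00665). Psmb8 was at 0.819, 0.91, 1.37 and 1.51 CPM in 2iL and at 8.06, 15.5, 1.16 and 2.21 CPM in EpiLC, with raw counts of 6, 7, 9 and 9 and 50, 72, 3 and 18. Its log2 fold change was 2.56 (SE 0.71, adjusted p = 0.00823) and its groups overlapped through EpiLC replicate 3. This call was lost without EpiLC replicate 2, where the adjusted p became 0.0765.

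Psmb8 and Psmb9 lie close together in the major histocompatibility complex on chromosome 17, and Psmb9 starts head to head with Tap1, a subunit of the transporter that feeds peptides to class I molecules. Tap1 rose with a log2 fold change of 2.24 (adjusted p = 1.77e-05). In the list of interferon and antigen processing genes, 5 of 10 rose and 0 fell, at a median of 1.36. The other risers were Irf1, an interferon-induced transcription factor (1.63, adjusted p = 1.31e-04), the class I genes H2-D1 (1.36) and H2-K1 (1.37), and Tapbp (1.25), which loads peptides on class I molecules. Tapbp spread from 78.7 to 429.7 CPM in EpiLC against 77.5 to 92.3 in 2iL, and the fit without the shallow libraries gave it 0.55 on the log2 scale (adjusted p = 0.0453). Summed immune cell markers were at 18.5 to 27.1 CPM in 2iL and 15.3 to 24.7 CPM in EpiLC, ranges that overlap. Fibroblast markers summed to 3.28 to 6.56 CPM in 2iL and 1.94 to 15.3 CPM in EpiLC, and trophectoderm markers to 143 to 238 and 29.3 to 49.2 CPM, and their part in the result was not tested. The windows below run from 250 bases before to 50 bases after the RefSeq start of both proteasome genes (GRCm38.p6, 5′ to 3′ on the gene's strand). In the GENCODE annotation the genes begin outside these windows, at 34197721 for Psmb8 and 34187764 for Psmb9, so motifs at those starts are not shown. Capitals mark the motifs found in the windows. For Psmb8 (chr17:34197945-34198244, plus strand) they mark TTCNNNGAA, the gamma-activated site through which interferon gamma acts, beginning 97 bases before the start, and for Psmb9 (chr17:34187281-34187580, minus strand) a CCAAT box on the reverse strand, 8 bases before it.
Psmb8: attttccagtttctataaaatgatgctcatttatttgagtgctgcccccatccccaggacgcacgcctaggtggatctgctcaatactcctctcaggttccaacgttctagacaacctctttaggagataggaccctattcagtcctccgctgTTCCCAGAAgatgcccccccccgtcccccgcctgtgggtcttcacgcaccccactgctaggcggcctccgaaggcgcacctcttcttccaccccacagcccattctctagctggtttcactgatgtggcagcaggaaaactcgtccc
Psmb9: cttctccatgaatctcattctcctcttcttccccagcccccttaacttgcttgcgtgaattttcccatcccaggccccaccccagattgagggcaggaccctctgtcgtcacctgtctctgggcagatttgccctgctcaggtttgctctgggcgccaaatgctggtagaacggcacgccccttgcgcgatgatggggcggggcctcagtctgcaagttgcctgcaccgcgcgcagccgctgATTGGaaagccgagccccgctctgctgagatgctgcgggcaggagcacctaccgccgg

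The constitutive partners of these subunits stayed without a call. Psmb5, the chymotrypsin-like subunit, was at 41.4 ± 5.26 CPM (SD, n = 4) in 2iL and 42.9 ± 11.4 in EpiLC, with a log2 fold change of 0.06 (SE 0.25, adjusted p = 0.885). For Psmb6, the caspase-like subunit, the means were 289.8 ± 51.5 and 392 ± 98.4 CPM, with a log2 fold change of 0.43 (SE 0.24, adjusted p = 0.192). Psmb7, the trypsin-like subunit, gave 109 ± 5.83 and 88.1 ± 39.9 CPM and a log2 fold change of -0.30 (SE 0.30, adjusted p = 0.491). The interferon-inducible activator genes did not pass either, with 0.35 (SE 0.18, adjusted p = 0.161) for Psme1 and 0.29 (SE 0.37, adjusted p = 0.59) for Psme2, whose reads can be shared with the near-identical copy Psme2b.

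**Figure D2:**
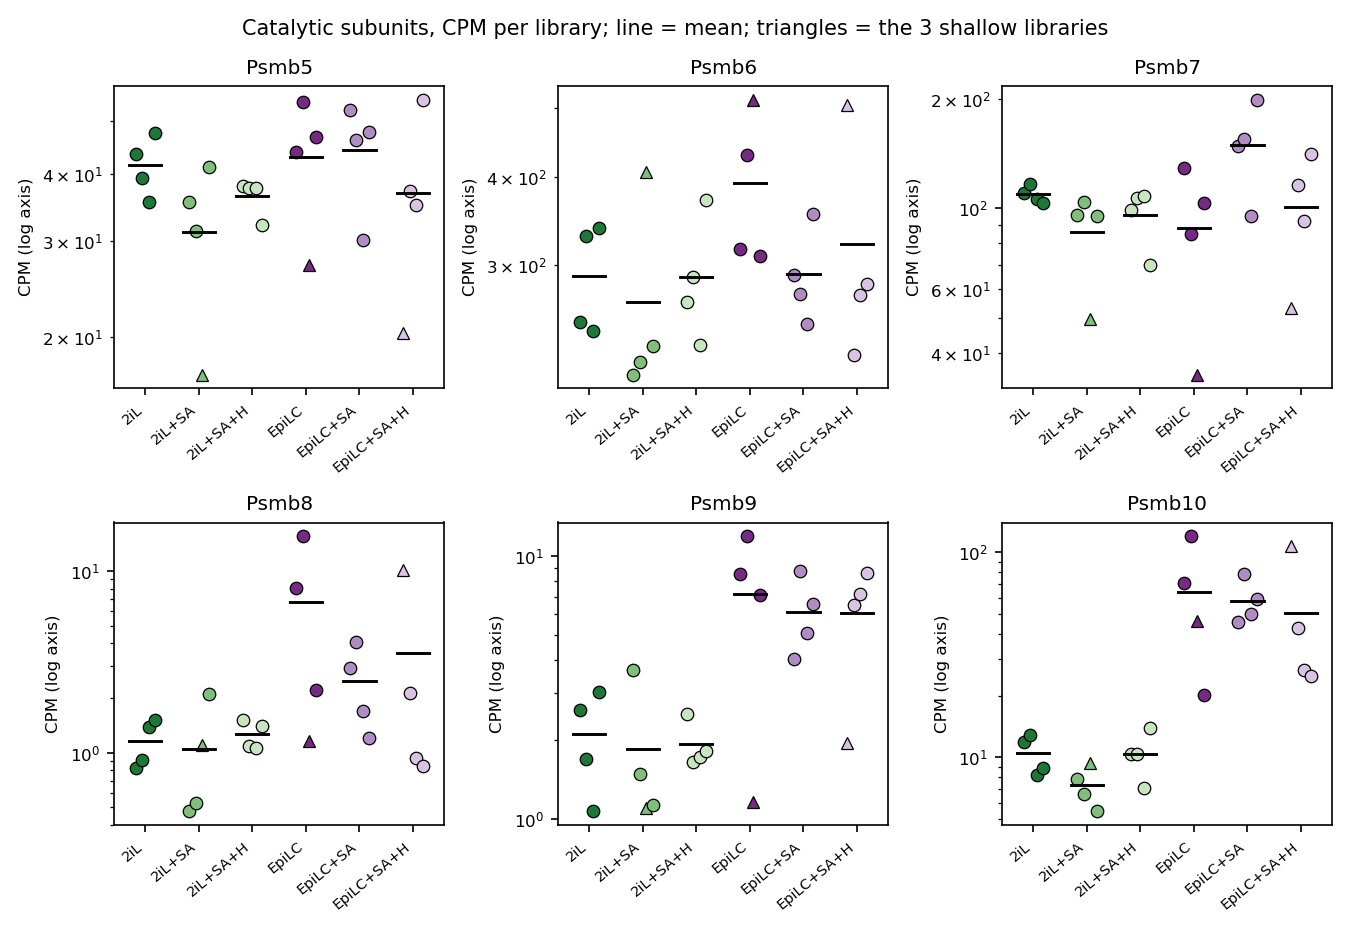
CPM of the 3 constitutive (upper row) and the 3 immunoproteasome (lower row) active-site subunits in each library, on log axes, with the line at the mean of 4 libraries and triangles for the shallow ones. In the lower row Psmb10 sits at 8.24 to 12.9 CPM in 2iL and 20.2 to 119.6 CPM in EpiLC, while the upper row overlaps between 2iL and EpiLC.

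Psma8 was at 22.4, 14.6, 11.9 and 15.0 CPM in 2iL and at 37.9, 20.1, 66.2 and 34.9 CPM in EpiLC. Only EpiLC replicate 2 fell within the naive range, and the log2 fold change was 1.30 (SE 0.28, adjusted p = 7.92e-04). The somatic alpha subunit it can replace, Psma7, stood at 381 ± 51.3 and 512 ± 164 CPM, with a log2 fold change of 0.43 (SE 0.21, adjusted p = 0.136). Summed germ cell markers were at 98.6 to 155 CPM in 2iL and 69.7 to 224 CPM in EpiLC, and their part in the result was not tested.

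Psmc2 was at 194, 239, 209.7 and 232 CPM in 2iL and at 171, 115, 83.6 and 135 CPM in EpiLC. The groups did not overlap, and the log2 fold change was -0.79 (SE 0.23, adjusted p = 0.0121). Psmd12 was at 177, 196, 203 and 196 CPM in 2iL and at 148, 141, 142 and 136 CPM in EpiLC. Here too all EpiLC libraries were lower, with a log2 fold change of -0.44 (SE 0.14, adjusted p = 0.0166). In all, 7 members had groups that did not overlap, or 14.9%, against 29.9% of the genes tested.

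Without the 3 shallow libraries, 12 members were called, or 25.5% against 31.7% of all genes in that fit, and the 6 above were among them. The additional risers were Psma7, Psmd9, Psmf1, Psmg2 and Psmg3, and Psmd3 was an additional faller. Psmg2 and Psmg3, chaperones of core assembly, then had log2 fold changes of 0.98 (adjusted p = 4.59e-05) and 0.77 (adjusted p = 5.60e-04).

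The next question was what succinylacetone does to these genes in the transition. Here 5 proteasome genes rose and 5 fell, so the set moved in both directions. The risers were Psmd1, Psmd2, Psmd8 and Psmd10, together with the alpha subunit Psma3. The fallers were the ATPases Psmc3 and Psmc4, the lid subunits Psmd6 and Psmd7, and the activator Psme1. The 10 called members are 21.3% of 47, and 27.9% of all genes tested were called, or 35.0% of those with a mean of at least 20 CPM, where the share of members was 22.7%. The median log2 fold change of the members was 0.09, and that of all genes was 0.00.

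Psmd8, a lid subunit, was at 183, 156, 98.3 and 192 CPM in EpiLC and at 246, 262, 206 and 332 CPM in EpiLC+SA. All 4 treated libraries were higher than all 4 untreated ones, with a log2 fold change of 0.73 (SE 0.20, adjusted p = 0.00786), or 1.66-fold. The gene lies on the minus strand of chromosome 7, from 29174188 to 29180701. Psmd1, a large scaffold subunit of the regulatory particle, was at 633, 295, 259 and 512 CPM in EpiLC and at 637, 797, 888 and 770.3 CPM in EpiLC+SA. Its groups did not overlap but came close, at 633 against 637 CPM, and the log2 fold change was 0.86 (SE 0.24, adjusted p = 0.00906).

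Psma3 was at 269, 248, 197 and 191 CPM in EpiLC and at 260.2, 337, 326 and 341 CPM in EpiLC+SA. EpiLC+SA replicate 1 lay within the untreated range, and the log2 fold change was 0.48 (SE 0.16, adjusted p = 0.0247). Psmd2, the other large scaffold subunit, and Psmd10, an assembly chaperone, rose with log2 fold changes of 0.50 (SE 0.16, adjusted p = 0.0242) and 0.61 (SE 0.20, adjusted p = 0.0218). Leaving out single libraries ended the calls of these 3 genes. For Psma3 this happened without EpiLC replicates 3 or 4 or EpiLC+SA replicates 2 or 4 (adjusted p up to 0.0839), for Psmd2 without EpiLC replicates 2 or 3 or EpiLC+SA replicates 2 or 4 (up to 0.0975), and for Psmd10 without EpiLC replicates 3 or 4 or EpiLC+SA replicate 4 (up to 0.135).

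Among the fallers, Psmd7 was at 431, 422, 351 and 344 CPM in EpiLC and at 244, 195, 225 and 227 CPM in EpiLC+SA. It encodes the inactive partner of the deubiquitinase subunit Psmd14 in the lid, and lies on the minus strand of chromosome 8, from 107580381 to 107588464. The groups were well apart, with a log2 fold change of -0.80 (SE 0.17, adjusted p = 0.00135), the smallest adjusted p of the members in this comparison. Psmd14 itself had a log2 fold change of 0.77 (SE 0.30, adjusted p = 0.054) and was not called.

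Psmc3 was at 417, 614, 859 and 339 CPM in EpiLC and at 239, 236, 249 and 265 CPM in EpiLC+SA. The treated libraries were narrow and all lower, while the untreated ones spread widely with the shallow replicate 3 on top, and the log2 fold change was -1.17 (SE 0.33, adjusted p = 0.01). The fit without the shallow libraries gave -0.89 (adjusted p = 4.69e-04). The 3′ end of Psmc3 (chromosome 2, 91054009 to 91066369, plus strand) overlaps Slc39a13 on the other strand, which had at most 80 counts in a library and was not called.

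Psmc4 was at 164, 197, 197 and 117 CPM in EpiLC and at 93.7, 73.4, 95.6 and 108 CPM in EpiLC+SA. The groups did not overlap, and the log2 fold change was -0.86 (SE 0.24, adjusted p = 0.01). Of the other ATPases, Psmc1 and Psmc5 had log2 fold changes of -0.78 and -1.21 and Psmc2 and Psmc6 of 0.13 and 0.31, none of them called. Psmc1 and Psmc5 were at 2465 and 1192 CPM in the shallow EpiLC replicate 3, above all other libraries of that group. Psmc5 was called without the shallow libraries at -0.63 (adjusted p = 0.0498), and Psmc1 was not, at -0.10 (adjusted p = 0.684).

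Psme1, a subunit of an activator ring of the core, was at 80.9, 133, 114 and 68.1 CPM in EpiLC and at 58.1, 77.2, 70.7 and 66.3 CPM in EpiLC+SA. The groups overlapped, the log2 fold change was -0.54 (SE 0.18, adjusted p = 0.031), and the call was lost without EpiLC replicates 2 or 3 or EpiLC+SA replicates 1 or 4 (adjusted p up to 0.145). Psmd6 fell by 0.55 on the log2 scale (adjusted p = 0.0137), and this call was lost without EpiLC replicate 2 or EpiLC+SA replicate 3 (adjusted p up to 0.0731). The 3′ ends of Psme1 and Psma3 overlap Emc9 and 3110056K07Rik on the other strand, and that of Psmd1 overlaps Gm21972 on the same strand. The calls of Psmd1, Psmd7, Psmd8, Psmc3 and Psmc4 stayed with any single library left out.

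By letter, the median log2 fold change with succinylacetone was 0.21 for the 8 Psma genes, 0.03 for the 10 Psmb, -0.82 for the 6 Psmc, 0.36 for the 14 Psmd, 0.05 for the 4 Psme and 0.12 for the 4 Psmg genes, and Psmf1 had 0.17. Of the 6 ATPases 2 fell and 0 rose, and of the 14 Psmd genes 4 rose and 2 fell. The medians of these letters were -0.36 and 0.14 in the fit without the shallow libraries, so both were closer to 0. Subunits of the same particle went in opposite directions, such as Psmd8 and Psmd7, which are both in the lid. In all, 11 members had groups that did not overlap, or 23.4%, against 25.7% of all genes.

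**Figure D3:**
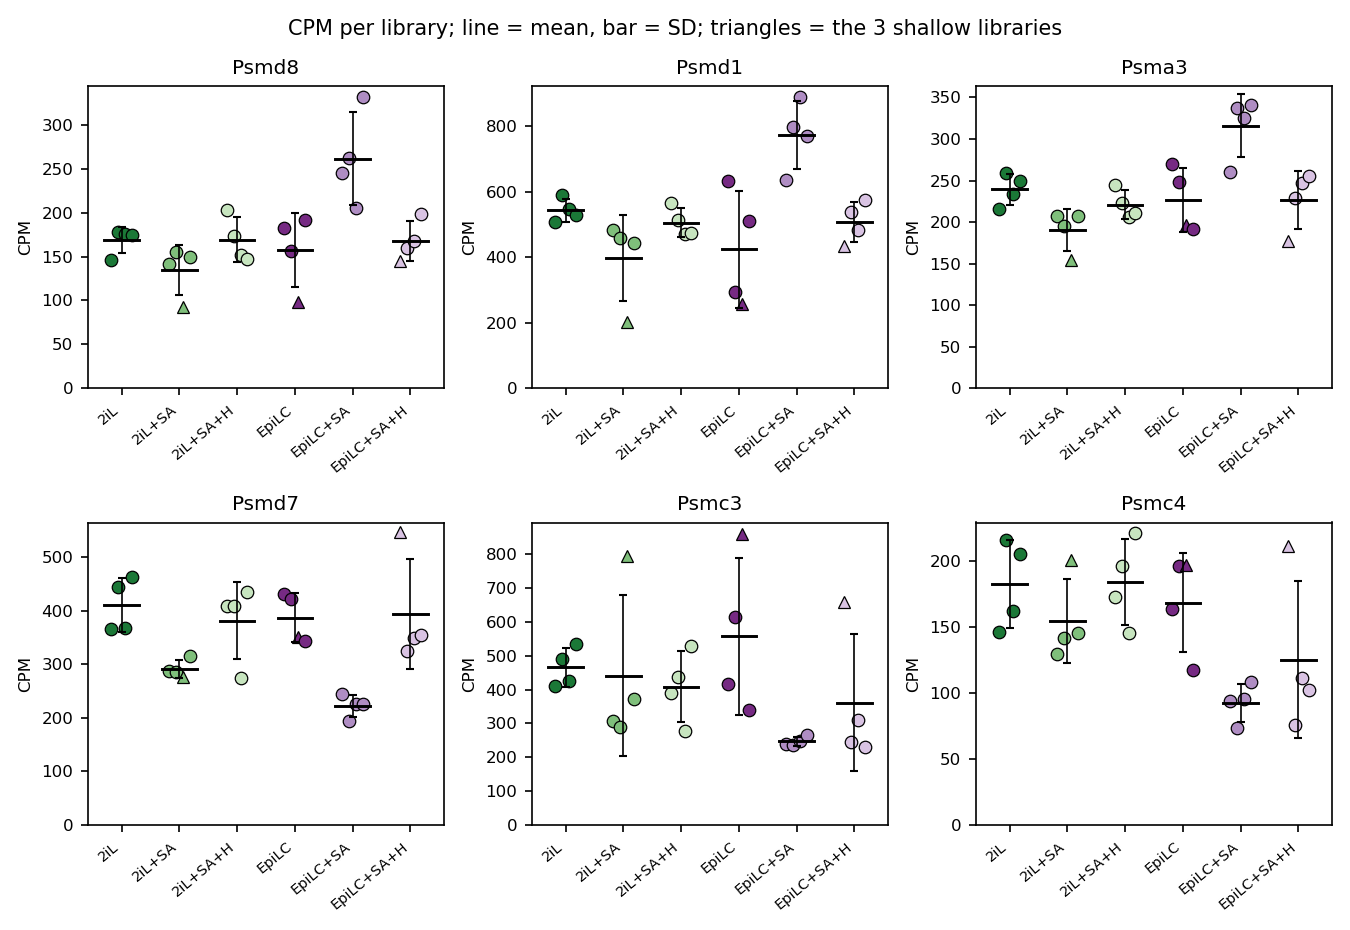
CPM of Psmd8, Psmd1 and Psma3, which rose with succinylacetone in transition, and of Psmd7, Psmc3 and Psmc4, which fell, in all 24 libraries, with the mean and SD of 4 libraries and triangles for the shallow ones. The EpiLC+SA libraries of Psmd7 sit between 195 and 244 CPM, below the 344 to 431 CPM of EpiLC.

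The active-site subunits gave no call with all libraries in the fit. Psmb5 was at 44.1 ± 9.66 CPM in EpiLC+SA, with a log2 fold change of 0.03 (SE 0.26, adjusted p = 0.943), and its sign depended on the libraries used. Psmb6 and Psmb7 had log2 fold changes of -0.43 (SE 0.24, adjusted p = 0.195) and 0.75 (SE 0.30, adjusted p = 0.0664). The 3′ end of Psmb7 overlaps Nek6 on the other strand, a kinase gene that rose with a log2 fold change of 0.85 (adjusted p = 0.0112).

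Psmb8 was at 2.91, 4.04, 1.69 and 1.21 CPM in EpiLC+SA, inside the wide EpiLC range of 1.16 to 15.5 CPM, with a log2 fold change of -1.47 (SE 0.68, adjusted p = 0.107). It was called without the shallow libraries, at -1.78 (adjusted p = 0.0125). Psmb9 was at 4.05, 8.72, 5.07 and 6.54 CPM, with a log2 fold change of -0.28 (SE 0.46, adjusted p = 0.69). Psmb10 was at 45.5, 78.0, 49.8 and 59.1 CPM and stayed above all 2iL libraries, with a log2 fold change against EpiLC of -0.14 (SE 0.41, adjusted p = 0.828). Irf1 stood at a log2 fold change of -3.37 (adjusted p = 3.72e-08), and Psme2 was at -0.10 (adjusted p = 0.871).

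Without the 3 shallow libraries 16 members were called in this comparison, 7 higher and 9 lower, or 34.0% against 33.0% of all genes in that fit. They held all 10 called with every library in the fit, and DESeq2 also called 16 that held these 10. State markers moved with the comparison. Summed primed markers were at 2723 to 3889 CPM in EpiLC and 871 to 1659 CPM in EpiLC+SA, and summed naive markers at 92.2 to 556 and 561 to 1002 CPM. Markers of other cells also moved without overlap, with summed immune cell markers at 15.3 to 24.7 CPM in EpiLC and 31.2 to 48.3 in EpiLC+SA, and neuroectoderm markers at 18.7 to 29.8 and 8.02 to 14.6, then 22.5 to 33.4 CPM with hemin. The part of these markers in the changes of the proteasome genes was not tested.

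The promoters of genes that went in opposite directions and those of the constitutive active-site subunits are shown for their sequence context. RefSeq windows of 300 bases (GRCm38.p6, 5′ to 3′ on the gene's strand) were found for 39 of the 47 members, and 4 motifs were searched on both strands. TGACNNNGC, the core of the element bound by NFE2L1 with small Maf proteins, was in 15.4% of these 39 genes (6, among them Psmb5 and Psmb6), against 12.4% of all 32851 windows and 16.8% of the tested genes with a window. The CCAAT box was in 33.3% of the members (13) and 37.4% of all windows, TTCNNNGAA in 7.69% (3) and 8.30%, and the E-box CACGTG in 10.3% (4) and 7.15%. Among the tested genes these 3 shares were 43.2%, 8.12% and 11.7%, each above that of the members. Psmd8 (chr7:29180624-29180923, minus strand), which rose, and Psmc4 (chr7:28050043-28050342, minus strand), which fell, held none of the 4 motifs. In Psmb5 (chr14:54617946-54618245, minus strand) and Psmb6 (chr11:70525107-70525406, plus strand) capitals mark TGACNNNGC, which begins 47 and 9 bases before the start.
Psmd8: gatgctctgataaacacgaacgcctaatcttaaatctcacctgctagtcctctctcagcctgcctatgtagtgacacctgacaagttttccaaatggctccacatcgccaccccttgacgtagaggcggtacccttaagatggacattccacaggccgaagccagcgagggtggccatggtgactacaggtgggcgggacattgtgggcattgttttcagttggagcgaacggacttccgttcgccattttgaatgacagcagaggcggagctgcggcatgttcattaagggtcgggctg
Psmc4: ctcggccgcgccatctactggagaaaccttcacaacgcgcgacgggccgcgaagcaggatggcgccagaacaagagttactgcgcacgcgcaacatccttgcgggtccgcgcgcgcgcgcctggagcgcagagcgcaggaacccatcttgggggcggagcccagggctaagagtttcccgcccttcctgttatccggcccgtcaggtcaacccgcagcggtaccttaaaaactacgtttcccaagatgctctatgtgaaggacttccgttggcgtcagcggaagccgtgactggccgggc
Psmb5: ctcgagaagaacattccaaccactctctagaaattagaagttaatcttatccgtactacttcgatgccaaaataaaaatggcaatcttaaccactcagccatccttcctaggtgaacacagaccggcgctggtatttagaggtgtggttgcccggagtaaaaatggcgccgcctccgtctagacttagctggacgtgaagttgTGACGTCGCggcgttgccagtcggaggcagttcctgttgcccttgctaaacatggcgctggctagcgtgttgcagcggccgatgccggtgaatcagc
Psmb6: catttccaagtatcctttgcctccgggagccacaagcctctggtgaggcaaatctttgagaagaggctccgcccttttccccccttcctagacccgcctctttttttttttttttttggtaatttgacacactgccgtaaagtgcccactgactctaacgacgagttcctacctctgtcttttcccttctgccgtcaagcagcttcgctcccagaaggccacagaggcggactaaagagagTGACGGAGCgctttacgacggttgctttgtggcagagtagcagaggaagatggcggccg

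Hemin given together with succinylacetone asks whether the supply of heme changes what the inhibitor did. Against EpiLC+SA, Psmd7 rose and Psmd8 and Psma3 fell, each opposite to its change with succinylacetone. The comparisons share the EpiLC+SA libraries, so the opposite signs are not independent. The 3 called members are 6.38% of 47, against 16.5% of all genes tested. The median of the members was -0.10, and that of all genes was 0.01.

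Psmd7 was at 548, 325, 349 and 355 CPM in EpiLC+SA+H, above all EpiLC+SA libraries (195 to 244 CPM). The log2 fold change was 0.82 (SE 0.17, adjusted p = 0.00177). The shallow replicate 1 was highest, and without the shallow libraries the value was 0.63 (adjusted p = 0.00157).

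Psmd8 was at 145, 160.2, 167 and 198 CPM with hemin, below all EpiLC+SA libraries (206 to 332 CPM). The log2 fold change was -0.64 (SE 0.20, adjusted p = 0.0281). Psma3 was at 177, 229, 247 and 255 CPM, also below all EpiLC+SA libraries (260.2 to 341 CPM), with a log2 fold change of -0.48 (SE 0.16, adjusted p = 0.0385). Both calls were lost when any of several single libraries was left out, with adjusted p up to 0.156 and 0.137. For Psmd8 these were EpiLC+SA replicates 2 and 4 and EpiLC+SA+H replicates 1, 2 and 3, and for Psma3 EpiLC+SA replicate 3 as well.

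The ATPases that fell with succinylacetone were not called with hemin. Psmc3 was at 659, 244, 308 and 231 CPM and Psmc4 at 212, 75.8, 111 and 102 CPM, in both cases with the shallow replicate 1 far above the rest. Their log2 fold changes against EpiLC+SA were 0.54 (SE 0.33, adjusted p = 0.277) and 0.42 (SE 0.24, adjusted p = 0.249). Without the shallow libraries they were 0.09 (adjusted p = 0.771) and 0.07 (adjusted p = 0.833).

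That fit without the shallow libraries called 12 members, 2 higher and 10 lower, or 25.5% against 23.4% of all genes. Psmd7 and Psmg2 were higher. Psma3, Psma4, Psmb3, Psmb4, Psmc6, Psmd1, Psmd2, Psmd8, Psmd13 and Psmf1 were lower, with log2 fold changes from -0.70 to -0.36. The shallow EpiLC+SA+H replicate 1 was far above the others for Psmd13, at 620.2 against 185 to 205 CPM.

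Compared directly with untreated EpiLC, EpiLC+SA+H had 0 called members (edgeR's quasi-likelihood test), against 0.0622% of all genes. At an unadjusted p under 0.05 there was 1 (10.4% of all genes), Psmd10, with a log2 fold change of 0.53 (SE 0.20, adjusted p = 0.353), and DESeq2 called 0. Psmd8 stood at 0.09, Psmd7 at 0.02 and Psma3 at 0.00 in this comparison, with standard errors of 0.20, 0.17 and 0.16. All 6 ATPases had values below 0, with a median of -0.53. Without the shallow libraries 2 members, or 4.26%, were called lower, Psmc3 at -0.80 (adjusted p = 0.0401) and Psmb8 at -2.71 (adjusted p = 0.0278). Of the 16344 genes in that fit 98 were called lower, and 1.28% were called in either direction. At an unadjusted p under 0.05 that fit had 14 members. Of these 12 were lower, or 25.5%, against 8.25% of all genes that were lower. With a mean of at least 20 CPM these shares were 25.0% and 13.4%. Of the 47 log2 fold changes 34 were then below 0, at a median of -0.16, against 0.02 over all genes.

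**Figure D4:**
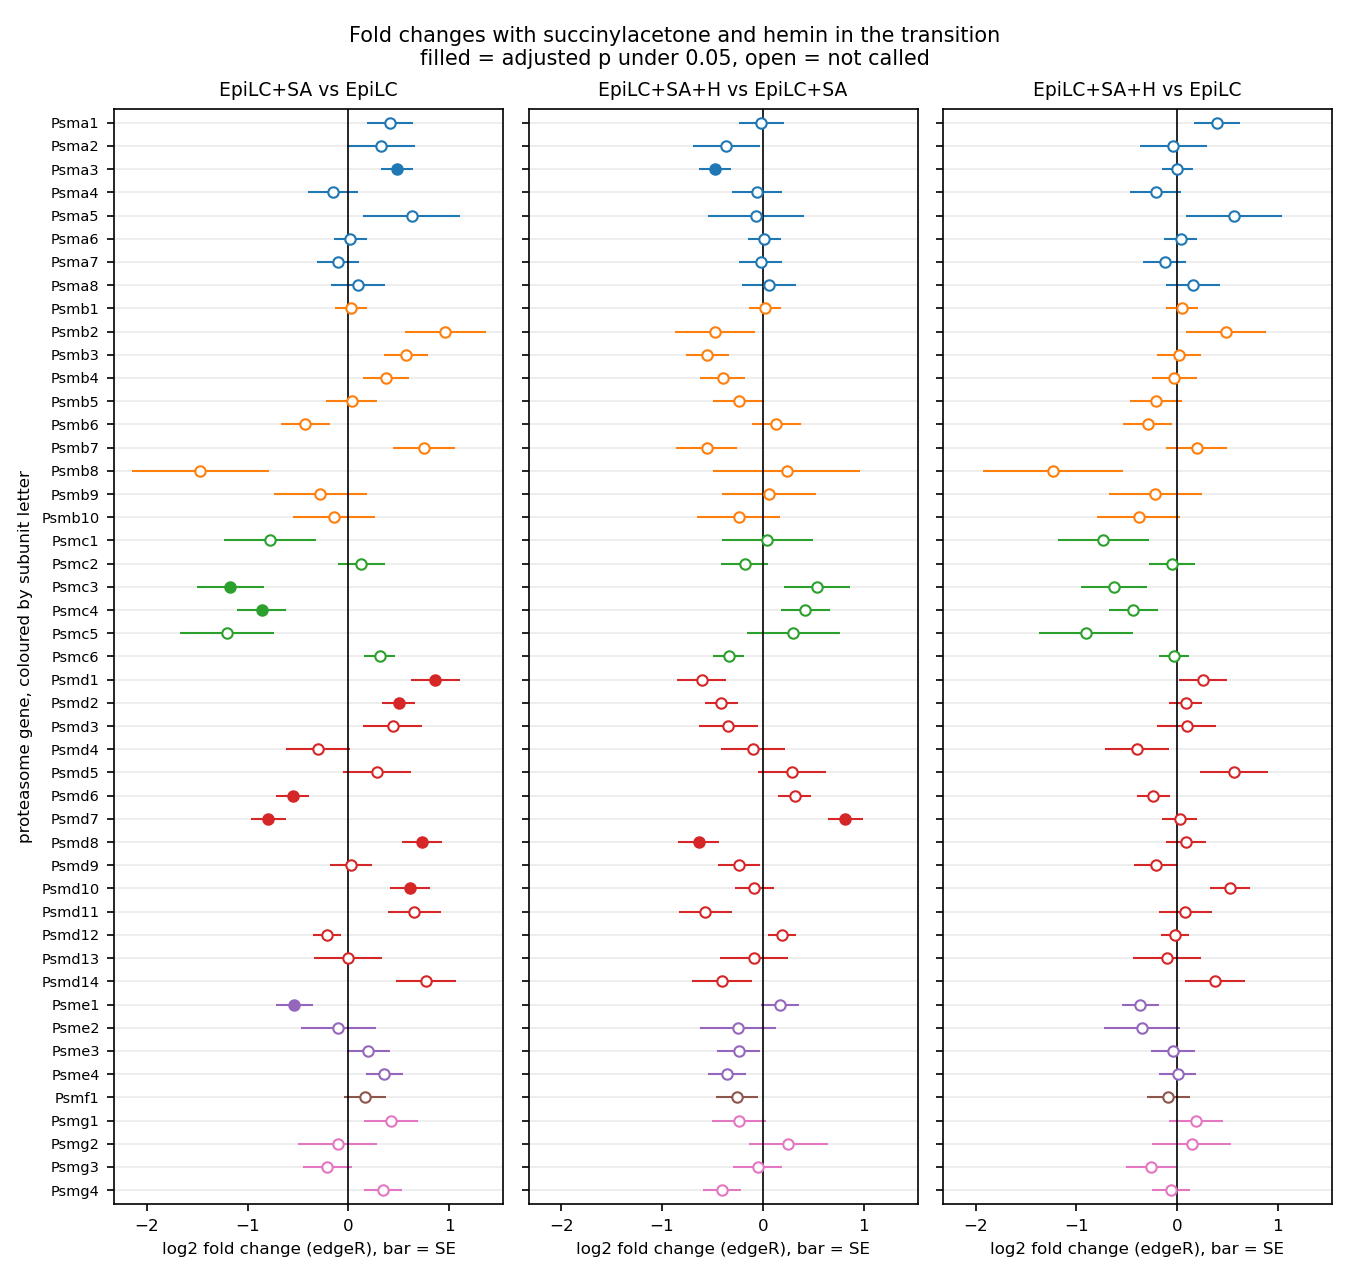
Log2 fold changes of the 47 genes with their SE in the 3 comparisons among the groups in transition, coloured by letter and filled where called. Filled points are seen on both sides of 0 with succinylacetone (5 higher and 5 lower), at Psmd7, Psmd8 and Psma3 with hemin, and nowhere when cells with both are compared with untreated EpiLC.

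In naive cells, succinylacetone gave no called member. The count was 0 by edgeR's quasi-likelihood test and 0 by DESeq2, and 0.0498% of all genes were called. At an unadjusted p under 0.05 there were 13 members, all lower, or 27.7%, against 5.58% of all genes that were lower at this p and 10.3% of those with a mean of at least 20 CPM, where the share of members was 29.5%. Of the 47 log2 fold changes 43 were below 0, at a median of -0.30, while the median was 0.03 over all genes tested and -0.08 over those with at least 20 CPM. The drop was not particular to the proteasome. All 8 genes of the chaperonin list read further below were also below 0, at a median of -0.47. Each letter had a median below 0, from -0.01 for Psmf1 to -0.46 for Psmg.

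Psmd7 was at 367, 445, 368 and 464 CPM in 2iL and at 287, 285, 276 and 316 CPM in 2iL+SA. All treated libraries were lower, with a log2 fold change of -0.50 (SE 0.17, adjusted p = 0.215). Psmb3, a core beta subunit without an active site, was at 263, 363, 259.7 and 346 and 207, 208, 165 and 232 CPM, again without overlap, with -0.60 (SE 0.22, adjusted p = 0.235). In all, 16 members had groups that did not overlap, or 34.0%, against 12.2% of all genes. In the fit without the shallow libraries 19 members, or 40.4%, were lower at an unadjusted p under 0.05, against 7.35% of all genes and 14.9% of those with at least 20 CPM. The median was then -0.27, and 0 members were called, against 0.642% of all genes. Summed neuroectoderm markers were at 20.2 to 31.7 CPM in 2iL and 42.0 to 70.6 CPM in 2iL+SA, and their part in the result was not tested.

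With hemin added, naive cells had 0 called members against 2iL+SA (edgeR's quasi-likelihood test and DESeq2), and 0.0% of all genes were called. At an unadjusted p under 0.05 there were 5 members, all higher, or 10.6%. Of the 16067 genes 369 were higher at this p, and 4.59% were higher or lower. Of the 47 log2 fold changes 41 were above 0, at a median of 0.21. Over all genes tested 7815 were above 0, at a median of -0.01. Of the 6445 with at least 20 CPM 3516 were, at 0.03. The 2iL+SA libraries enter this comparison and the previous one, so the opposite signs are not independent. Against 2iL, 2iL+SA+H also had 0 called members by both tools, with 0.00622% of all genes called, and 1 member, Psmd10, at an unadjusted p under 0.05 (4.88% of all genes). Psmd10 was at 27.0, 34.1, 31.0 and 35.2 CPM in 2iL and 33.0, 44.8, 43.9 and 53.8 CPM in 2iL+SA+H, with a log2 fold change of 0.46 (SE 0.19, adjusted p = 0.963). In 2iL+SA+H replicate 3, 25 of the 47 genes were at their lowest of the group, and proteasome genes took 0.783% of its counts against 0.978% to 1.02% in the other 3 libraries.

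Whether succinylacetone acts differently in the 2 states was tested by the difference of the effects in the same model. In 6 members the effect was higher in transition, and in 0 it was lower. They were Psmd1, Psmd2, Psmb3, Psmd8, Psma3 and Psmc6, or 12.8% of the members, against 5.27% of all genes with a higher effect and 14.3% with any difference. With a mean of at least 20 CPM the share was 13.6% of members, against 8.89% of genes with a higher effect and 19.5% with any difference. The median difference was 0.41 for the members and -0.05 for all genes.

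Psmd1 had the largest difference among the called members, 1.31 (SE 0.34, adjusted p = 0.0115), from -0.45 in naive cells to 0.86 in transition. Its CPM were 507, 589, 548 and 529 in 2iL and 484, 459.7, 203 and 443 in 2iL+SA, with the shallow replicate 3 far below the others. The difference was 0.90 without the shallow libraries (adjusted p = 0.00949).

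Psmb3 was at 226, 319, 125 and 222 CPM in EpiLC and 310.2, 307, 297 and 412 CPM in EpiLC+SA. Here 3 of the 4 untreated libraries were below all treated ones, with EpiLC replicate 2 inside their range, while in naive cells all untreated libraries were above all treated ones. The difference of the effects was 1.17 (SE 0.31, adjusted p = 0.0125). For Psmd2, Psmd8 and Psma3 it was 0.90 (SE 0.23, adjusted p = 0.0115), 1.05 (SE 0.28, adjusted p = 0.0141) and 0.81 (SE 0.22, adjusted p = 0.0171). Psmc6 passed narrowly, at 0.65 (SE 0.22, adjusted p = 0.0441), and did not pass without the shallow libraries (adjusted p = 0.074). It was also lost when any of 12 of the 16 libraries was left out alone, with adjusted p up to 0.0956, and stayed without 2iL+SA replicate 2, EpiLC replicates 1 or 2 or EpiLC+SA replicate 1. The other 5 stayed called with any single library left out.

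The effect of hemin over succinylacetone also differed between the states in 3 members, all lower in transition, or 6.38%, against 1.76% of all genes with a lower effect and 6.33% with any difference. With a mean of at least 20 CPM the share was 6.82% of members, against 2.87% of genes with a lower effect and 8.77% with any difference. Psmb3 had -1.15 (SE 0.31, adjusted p = 0.0235), Psmd8 -0.96 (SE 0.28, adjusted p = 0.0391) and Psmd2 -0.76 (SE 0.23, adjusted p = 0.0472). The groups with succinylacetone alone enter this difference and the previous one, so the 2 sets of values are not independent. Psmb3 was at 328, 342, 197 and 369 CPM in 2iL+SA+H and 229, 218, 239 and 222 CPM in EpiLC+SA+H, so hemin libraries were mostly higher than the 165 to 232 CPM of 2iL+SA and all lower than the 297 to 412 CPM of EpiLC+SA. Single libraries decided these 3 calls. Psmb3 was lost without 2iL+SA+H replicates 2 or 4 or EpiLC+SA replicate 4 (adjusted p up to 0.0731), and Psmd8 without 2iL+SA replicates 1 or 3, 2iL+SA+H replicates 1 or 2, EpiLC+SA replicates 2 or 4 or EpiLC+SA+H replicates 1, 2 or 3 (up to 0.122). Psmd2 stayed called only without 2iL+SA+H replicate 3 or EpiLC+SA+H replicate 1, and was lost without any other of the 16 libraries (up to 0.114). Without the shallow libraries 10 members were lower, or 21.3%. In that fit 811 of 16344 genes were lower, or 622 of the 6445 with at least 20 CPM, and 12.7% of all genes had any difference.

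**Figure D5:**
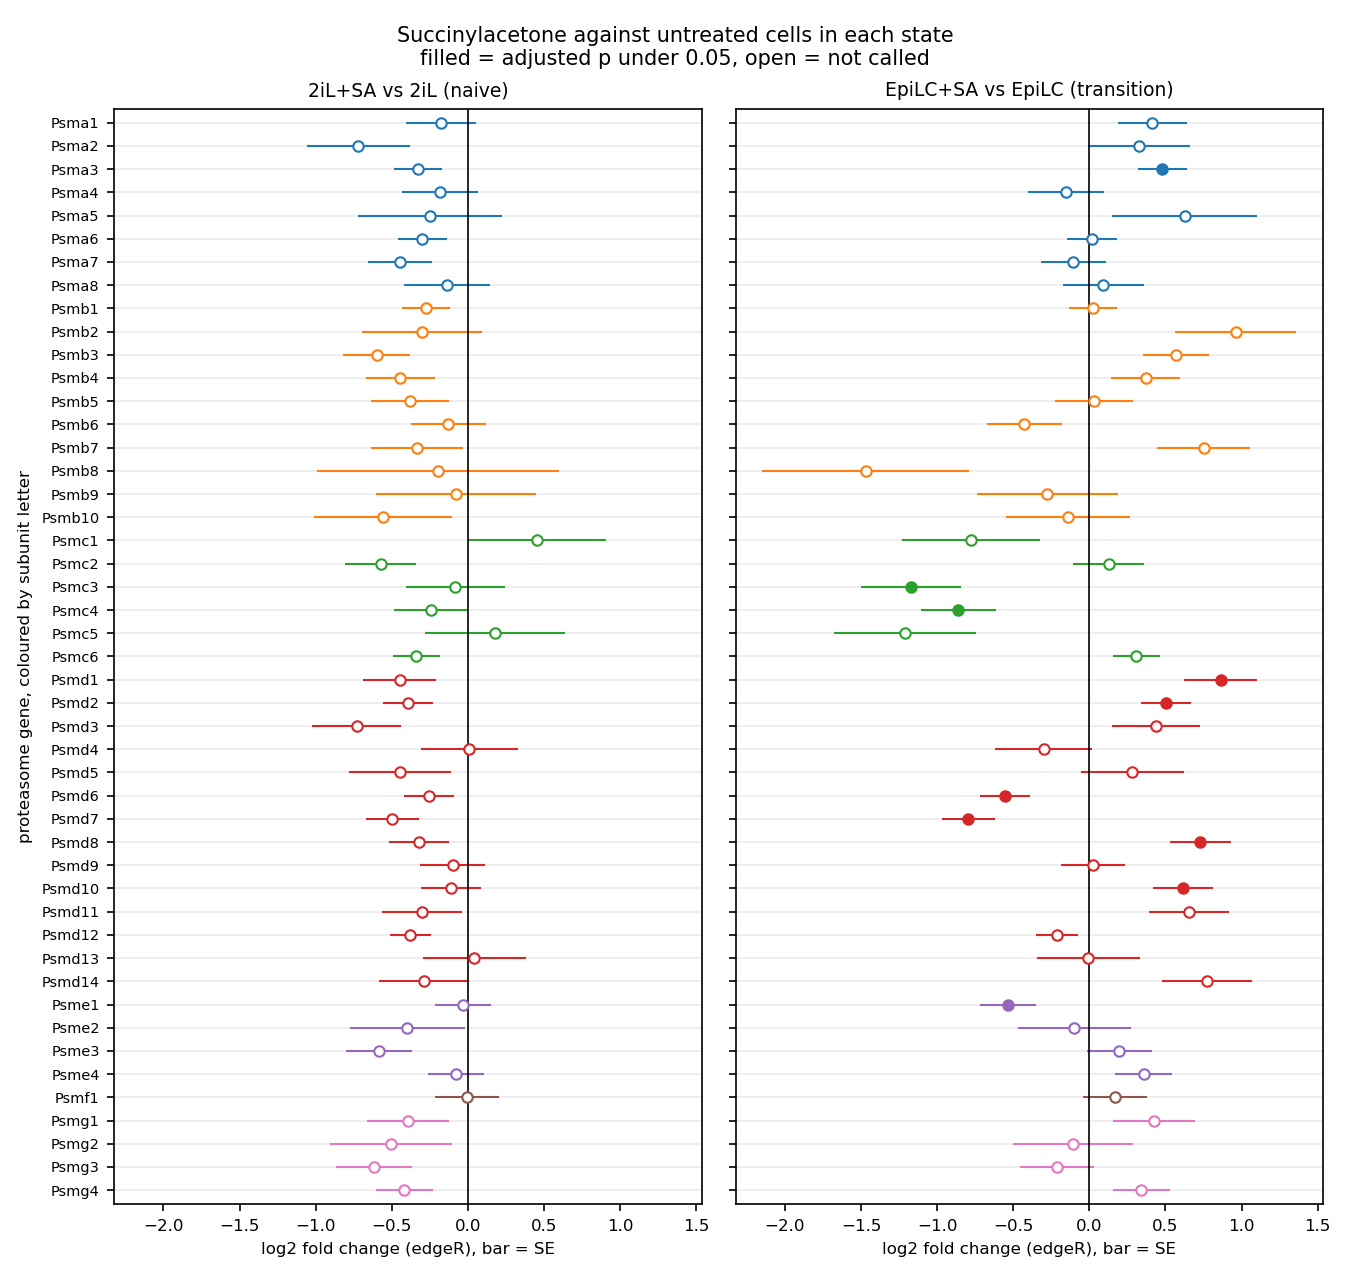
Log2 fold changes with SE of the 47 genes for succinylacetone against untreated cells, in naive cells on the left and in transition on the right, filled where called. On the left 43 of 47 points lie below 0 and none is filled, and on the right the points spread to both sides, with 5 filled above and 5 below 0.

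Genes that work with the proteasome but carry no Psm name were read from 6 lists. Of 17 tested partners of the proteasome, 4 rose and 4 fell with succinylacetone in transition, at a median of 0.17. Ube3c, a ubiquitin ligase at the proteasome, was among those that fell (-0.60, adjusted p = 0.00487). Usp14, a deubiquitinase of the regulatory particle, rose (0.63, adjusted p = 0.00564). With hemin 3 of them fell and 0 rose, Usp14 among them (-0.77, adjusted p = 0.00172). Against 2iL, 1 partner rose in EpiLC, Ube3c (0.60).

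NFE2L1 is the transcription factor that raises proteasome genes when the proteasome is impaired. Of 14 tested genes around it, 0 rose and 5 fell with succinylacetone in transition, at a median of -0.25. They were Keap1, an adaptor for the degradation of the related factor NFE2L2 (-1.61, adjusted p = 1.62e-06), Fbxw7, which marks NFE2L1 for degradation (-1.27, adjusted p = 8.12e-06), Ddi2, the protease that activates NFE2L1 (-1.11, adjusted p = 2.82e-04), Bach1, a repressor that binds heme, and Btrc. With hemin 4 of the 14 rose and 0 fell, with Keap1 at 2.18, Fbxw7 at 1.03 and Ddi2 at 0.72. Nfe2l1 itself was at -0.09 with succinylacetone (adjusted p = 0.77). In EpiLC against 2iL, 1 rose and 3 fell, with Keap1 at -1.83.

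Of 6 genes for ubiquitin and its activation, 2 rose and 0 fell with succinylacetone in transition, at a median of 0.61. These were Uba1, the main activating enzyme of ubiquitin (0.62, adjusted p = 0.00165), and Rps27a, which encodes ubiquitin fused to a ribosomal protein (1.26, adjusted p = 0.0306). With hemin Uba1 fell (-0.57, adjusted p = 0.0057), and none of the 6 was called in EpiLC against 2iL, where 1 was lower at an unadjusted p under 0.05.

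Heat shock chaperones moved in both directions. Of 13, 4 rose and 3 fell with succinylacetone, at a median of 0.14. The inducible genes Hspa1a (4.06, adjusted p = 1.52e-04) and Hspa1b (3.43) rose, and they are near-identical copies that can share reads. Both were near the floor in EpiLC, with means of 0.669 and 0.642 CPM. In EpiLC+SA they spread from 2.10 to 21.7 and from 1.78 to 11.8 CPM. The co-chaperone genes Dnajb1 (-1.66, adjusted p = 1.23e-04) and Dnaja1 (-1.04) fell. With hemin 4 rose and 2 fell, with Hspa1a at -2.76 (mean of 1.70 CPM in EpiLC+SA+H) and Dnajb1 at 1.69. Against 2iL, 4 of the 13 fell in EpiLC and 0 rose.

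Among 8 chaperonin genes (the Cct genes and Tcp1), 0 were called with succinylacetone in transition by edgeR, and 3 were higher at an unadjusted p under 0.05. In EpiLC against 2iL 1 rose, the chaperonin subunit Cct5 (0.61). Of the 10 interferon and antigen processing genes, 2 rose and 2 fell with succinylacetone, and with hemin 1 rose, which was Irf1 (2.92, adjusted p = 6.07e-07). For all of these lists, the shares over all genes tested were 27.9% called with succinylacetone in transition, 16.5% with hemin and 28.3% in EpiLC against 2iL. In naive cells with succinylacetone 0 genes of these lists were called, against 0.0498% of all genes. Of the 8 chaperonin genes, 4 were lower there at an unadjusted p under 0.05. With hemin all 8 were above 0 against 2iL+SA, at a median of 0.28. The naive medians with succinylacetone were -0.26 for heat shock, -0.14 for ubiquitin, -0.03 for partners, 0.12 for NFE2L1 and 0.53 for interferon genes.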

How the data were processed

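RNA of the cell pellets was made into 3′ mRNA libraries (QuantSeq), sequenced single-end at 50 bp. Per the labels, FastQC 0.11.7, HISAT2 with mm10, SAMtools 1.5 and HTSeq were used. What the authors deposited are unnormalized whole-number counts of reads for each gene symbol in each library, and the annotation and the strand setting are not given in the sources used here.

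The filter filterByExpr (minimum count 5) kept 16067 genes with 99.9% of the counts. In R 4.3.3 they were scaled by TMM and fitted in 1 model of 6 groups with edgeR 4.0.16 and limma 3.58.1, using robust quasi-likelihood F tests, and the common dispersion was 0.0882. The comparisons were 7 between groups and 2 of an effect between states, with Benjamini-Hochberg adjustment over all genes tested. The test was also run on counts simulated from the means and dispersions of the same fit. These held no deviations particular to the shallow libraries, so that run cannot show how such libraries affect the calls. Whether replicates came from separate cultures is not stated, so p values measure the spread between these libraries.

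Members and lists were chosen with earlier results of these data known. Values per library were given for up to 3 called members of each letter with the smallest adjusted p at a mean of 20 CPM or more in EpiLC against 2iL and EpiLC+SA against EpiLC, for the called member with the largest change in each other comparison, and for Psmb8, Psmb9, Psmb10 and Psme1. Psmb5, Psmb6 and Psmb7 were given by fold changes and some group means, with their libraries in a figure, and Psme2 by fold changes. Up to 3 called genes were named of each other list, and other members or list genes (such as Psmc1, Psma2, Psmd10, Bach1 and Btrc) were named after their values were seen. Alternatives were DESeq2 1.42.0, edgeR with the size factors of DESeq2, no filter and a stricter one, only the groups compared, a replicate block, no shallow libraries, and each library left out. Positions are from GENCODE on GRCm38 and promoter windows from RefSeq, matched by symbol. Values of some single genes on these lists are not reported here.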

Additional observations from a re-analysis of the deposited data

Results flagged for a closer look

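In 132 groups of 4 libraries, 16 had a library whose gap to the nearest other exceeded Dixon's limit, where chance gives about 1 in 20, and 7 of the 16 were in the shallow libraries. These 7 were 2iL+SA replicate 3 for Psmb6 (406 CPM, others 209.8 to 229.9), Psmb7 (49.5, others 95.0 to 104), Psmc3 (795, others 289.8 to 372) and Psmd1 (203, others 443 to 484), and EpiLC+SA+H replicate 1 for Psmb8 (10.2, others 0.842 to 2.12), Psmd2 (399, others 275 to 282) and Psmd7 (548, others 325 to 355). The other 9 were Psmb5 in 2iL+SA+H replicate 4 (32.1 CPM), Psmb9 in 2iL+SA replicate 1 (3.69), Psmc2 in EpiLC+SA replicate 3 (119), Psme2 in EpiLC+SA replicate 2 (24.7), Psmd2 in 2iL+SA replicate 4 (286), Psmd7 in 2iL+SA+H replicate 3 (274), Psmd8 in 2iL replicate 1 (147), Psmb3 in EpiLC+SA replicate 4 (412) and Psmc6 in EpiLC+SA replicate 1 (222).

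The effect of succinylacetone differed between transition and naive cells, on the log2 scale, for Psmd1 (1.31), Psmb3 (1.17), Psmd8 (1.05), Psmd2 (0.90), Psma3 (0.81) and Psmc6 (0.65). The effect of hemin over succinylacetone differed for Psmb3 (-1.15), Psmd8 (-0.96) and Psmd2 (-0.76). These 9 values passed edgeR's quasi-likelihood test of the difference itself, and each was computed with the EpiLC+SA and 2iL+SA libraries.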

How the results depend on the processing

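Without the 3 shallow libraries the counts of called members were 12 in EpiLC against 2iL, 16 in EpiLC+SA against EpiLC, 12 in EpiLC+SA+H against EpiLC+SA, 2 in EpiLC+SA+H against EpiLC and 10 for the difference of the hemin effect. With DESeq2 they were 16, 5 and 6 in EpiLC+SA against EpiLC, EpiLC+SA+H against EpiLC+SA and the difference of the hemin effect, and without a filter the last was 1. Leaving out single libraries gave 6 to 9 calls in EpiLC against 2iL, 6 to 14 in EpiLC+SA against EpiLC, 1 to 3 in EpiLC+SA+H against EpiLC+SA, 5 to 11 for the difference of the succinylacetone effect and 0 to 3 for that of the hemin effect, and 0 in the comparisons with no call. The lowest of EpiLC+SA against EpiLC was without EpiLC+SA replicate 4, the 11 was without EpiLC replicate 1, and hemin had 1 call without EpiLC+SA replicates 2 or 4 or EpiLC+SA+H replicates 2 or 3. The cause was not tested.

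Whether replicate numbers pair the libraries is not stated, and the main fit used no replicate block. The correlations of same-numbered deviations ran from -0.26 to 0.40 over the 7 comparisons of groups, which does not settle it. In EpiLC+SA against EpiLC they ran from 0.06 to 0.16. A replicate block gave 7 calls in EpiLC against 2iL, 12 in EpiLC+SA against EpiLC, 3 in EpiLC+SA+H against EpiLC+SA, 0 in the other 4 comparisons of groups, and 9 and 3 for the differences of the succinylacetone and hemin effects.

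Among the values reported, signs turned only where there was no call. Psmb10 in EpiLC+SA against EpiLC went from -0.14 to 0.0052 under the replicate block, and Psmb5 there from 0.03 to -0.13 without the shallow libraries. With single libraries left out, Psmb5 ran from -0.075 to 0.23 and Psme2 from -0.14 to 0.57 in EpiLC against 2iL, and in EpiLC+SA against EpiLC Psmb5 ran from -0.16 to 0.18, Psmb9 from -0.62 to 0.036, Psmb10 from -0.44 to 0.35 and Psme2 from -0.41 to 0.34. Psmb8, with as few as 2 counts in a library, is limited by depth.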
